A study of Homo sapiens with 27 samples.

Results

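The 10 receptor kinase genes described here are MET, AXL, MERTK, TYRO3, EPHA2, EPHB2, EPHB4, DDR1, MST1R and ROR1, taken by symbol from the 58735 genes of the expression tables of 2 human liver cancer cell lines, HuH-7 and JHH-7. All 10 symbols were present in both tables, each in 1 row. RNA sequencing covered 27 libraries of cultured cells in 9 groups of 3. In both lines the groups carried a control guide that targets no gene (sgNTC, genotype given as WT), a guide to KLB (sgKLB), a guide to FGFR4 (sgFGFR4), or guides to FGFR3 and FGFR4 (sgFGFR3/4). JHH-7 had a further group with guides to FGFR1, FGFR3 and FGFR4 (sgFGFR1/3/4). The product of KLB, beta-klotho, partners with FGFR4 in hepatocytes to bind the gut hormone FGF19, and FGFR1, FGFR3 and FGFR4 encode fibroblast growth factor receptors. The guide groups are labelled knockouts; whether each was 1 clone or a pool of edited cells is not given in the sources used here. Replicates are labelled as biological, but nothing says how the cultures were separated, so the p-values measure the spread between these libraries.

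Receptor tyrosine kinases are membrane proteins whose extracellular part binds a ligand and whose intracellular kinase then phosphorylates tyrosines that recruit adaptor proteins. MET binds hepatocyte growth factor and MST1R, also called RON, binds the related ligand MST1. AXL, MERTK and TYRO3 form the TAM family, which binds GAS6 and PROS1 bridged to phosphatidylserine. EPHA2, EPHB2 and EPHB4 bind ephrins anchored in the membranes of neighbouring cells, DDR1 is switched on by collagens, and ROR1 is a pseudokinase-like receptor for WNT5A. In liver, MET is known for its part in regeneration, and several of these receptors can feed the same RAS and MAP kinase cascade that FGF receptors use.

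The promoter windows of EPHA2, EPHB2 and EPHB4 are shown because these genes carried most of the differences between knockout and control, and that of SPRY4 because its transcript followed EPHA2 across libraries. Each window covers the start of the gene in RefSeq (GRCh38.p14) and mainly the bases before it, is written 5′ to 3′ on the gene's strand, and has GC boxes (GGGCGG on either strand) in capitals. EPHA2 lies at chr1:16156020-16156319 on the minus strand, EPHB2 at chr1:22710588-22710887 on the plus strand, EPHB4 at chr7:100827474-100827773 on the minus strand and SPRY4 at chr5:142324198-142324497 on the minus strand.
EPHA2: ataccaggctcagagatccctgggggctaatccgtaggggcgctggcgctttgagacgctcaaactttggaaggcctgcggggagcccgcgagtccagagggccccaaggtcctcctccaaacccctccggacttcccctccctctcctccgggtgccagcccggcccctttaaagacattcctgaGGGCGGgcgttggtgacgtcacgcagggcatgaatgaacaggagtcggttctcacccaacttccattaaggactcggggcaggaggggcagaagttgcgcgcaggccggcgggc
EPHB2: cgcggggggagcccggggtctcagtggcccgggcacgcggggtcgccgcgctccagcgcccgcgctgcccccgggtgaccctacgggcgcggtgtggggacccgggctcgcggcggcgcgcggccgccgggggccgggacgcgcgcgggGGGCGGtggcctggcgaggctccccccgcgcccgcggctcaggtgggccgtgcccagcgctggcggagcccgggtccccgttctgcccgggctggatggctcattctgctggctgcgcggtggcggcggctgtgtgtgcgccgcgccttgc
EPHB4: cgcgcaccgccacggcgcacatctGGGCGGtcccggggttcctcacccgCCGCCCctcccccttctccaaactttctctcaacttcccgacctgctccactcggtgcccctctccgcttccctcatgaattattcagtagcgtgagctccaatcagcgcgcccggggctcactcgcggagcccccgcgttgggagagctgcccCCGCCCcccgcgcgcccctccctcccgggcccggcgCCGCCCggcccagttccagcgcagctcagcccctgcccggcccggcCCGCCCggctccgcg
SPRY4: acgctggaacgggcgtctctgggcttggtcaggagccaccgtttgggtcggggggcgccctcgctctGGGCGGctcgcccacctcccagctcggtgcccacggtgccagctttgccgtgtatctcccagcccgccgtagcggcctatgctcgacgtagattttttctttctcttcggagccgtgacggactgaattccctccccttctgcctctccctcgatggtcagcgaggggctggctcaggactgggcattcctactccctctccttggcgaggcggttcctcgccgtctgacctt
A GC box was present in 44.59% of the 27305 RefSeq promoter windows searched (1 per gene, of the same length), and EPHB4 had 5 matches against 1 in each of EPHA2, EPHB2 and SPRY4. The other motifs searched on both strands were the ETS core CCGGAA, held by 17.63% of all windows, and the AP-1 site TGANTCA, held by 7.764%. Neither string occurred in these 4 windows, which says nothing about whether such factors bind there. EPHB2 has a second RefSeq window that starts 1 base further on and gave the same matches.

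In GENCODE 29 on GRCh38 the genes span MET at chr7:116672390-116798386, AXL at chr19:41219203-41261766, MERTK at chr2:111898479-112029561, TYRO3 at chr15:41557675-41583586 and EPHA2 at chr1:16124337-16156087. The remaining genes span EPHB2 at chr1:22710839-22921500, EPHB4 at chr7:100802565-100827521, DDR1 at chr6:30876421-30900156, MST1R at chr3:49887002-49903873 and ROR1 at chr1:63774022-64181498. EPHA2 overlaps the antisense gene AL451042.2, and EPHB4 overlaps the protein-coding gene SLC12A9. EPHB2 (AL512444.1), AXL (AC011510.1), MST1R (AC105935.1 and AC105935.2) and ROR1 (ROR1-AS1) also overlap antisense genes. Whether the counting used strand is not given in the sources used here, so reads from such partners could not be separated.

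Levels are FPKM, a count of fragments divided by transcript length and library depth. Depth estimated from the steps of low FPKM values ranged from about 14100000 to 27800000 fragments per library, and between 13353 and 14196 genes reached 1 FPKM. The targeted genes were lower in their own guide groups: KLB was 17.1 FPKM in HuH-7 sgNTC and 6.52 in sgKLB, and 15.5 against 7.25 in JHH-7. FGFR4 was 239 FPKM in HuH-7 sgNTC and 87.4 in sgFGFR4, and 148 against 69.7 in JHH-7. FGFR3 was 118 and 46.7 FPKM in HuH-7 sgNTC and sgFGFR3/4, and in JHH-7 sgFGFR1/3/4 FGFR1 was 9.22 against 16.2 in control. All 8 hepatocyte markers (ALB, AFP, APOA1, APOB, SERPINA1, TTR, HNF4A, FGB) exceeded 1 FPKM in both lines, with summed levels of 4544 to 7839 FPKM in HuH-7 and 13016 to 28658 in JHH-7. Of 5 endothelial markers, 1 (PECAM1) exceeded 1 FPKM in each line, and of 5 immune markers, 2 (CD68 and LYZ) did. Summed endothelial levels were 0.53 to 2.11 FPKM in HuH-7 and 9.23 to 15.8 in JHH-7. Summed immune levels were 32.1 to 46.5 FPKM in HuH-7 and 229 to 411 in JHH-7. The stromal markers above 1 FPKM were COL1A1, COL1A2, PDGFRB and LUM in HuH-7 (summed level of all 5, 183 to 299 FPKM) and COL1A1, PDGFRB and LUM in JHH-7 (5.46 to 10.9 FPKM); the part of other cell types in the results was not tested.

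In control cells, EPHA2 and EPHB4 had the highest transcript levels of the 10 genes in both lines. The HuH-7 sgNTC mean of EPHA2 was 83.9 ± 5.27 FPKM (SD, n = 3), followed by EPHB4 at 62.6 ± 2.74. TYRO3 (23.9 ± 2.14), MET (22.0 ± 2.06) and DDR1 (21.5 ± 1.42) came next, with overlapping libraries. MERTK (2.16 ± 0.274) and MST1R (1.57 ± 0.639) also overlapped, and ROR1, AXL and EPHB2 were each at or below 0.19 FPKM in the HuH-7 controls. In JHH-7 sgNTC the order began with EPHA2 at 93.4 ± 10.7 FPKM, EPHB4 at 54.1 ± 3.63, MET at 40.8 ± 3.49, TYRO3 at 32.0 ± 4.17 and DDR1 at 21.2 ± 2.47, and no neighbours among these 5 overlapped. EPHB2 (5.73 ± 0.710) and MERTK (5.59 ± 0.101) overlapped each other, ROR1 followed at 1.34 ± 0.211 and AXL at 0.257 ± 0.0153. MST1R was listed at 0 in all 3 JHH-7 control libraries. The plot of receptor transcripts by library shows this order and the guide group of every library.

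**Figure D1:**
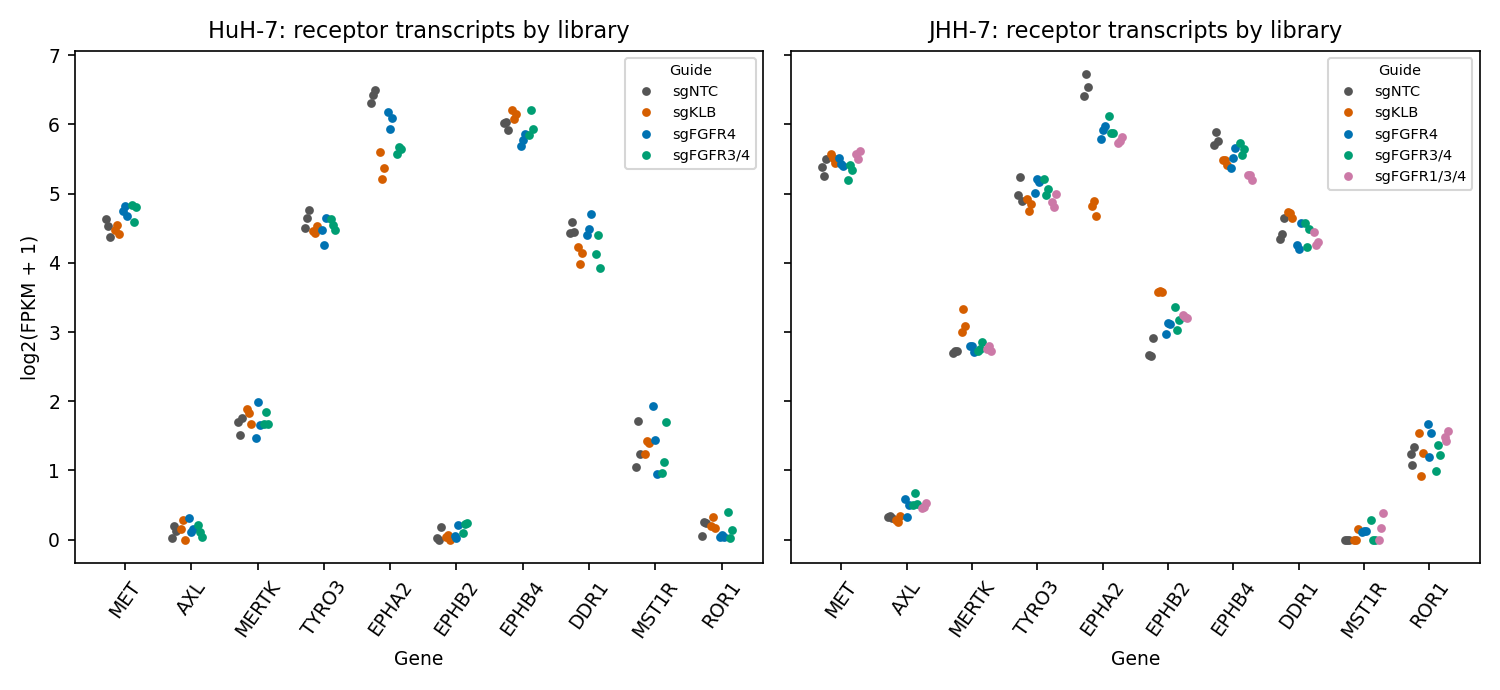
Transcript level of each receptor gene in every library, as log2(FPKM + 1), in HuH-7 (12 libraries, left) and JHH-7 (15 libraries, right); each point is 1 library and its colour is the guide group. EPHA2 is the gene whose knockout libraries lie farthest below the control libraries, from 83.9 to 41.4 FPKM (group means) with sgKLB in HuH-7 and from 93.4 to 26.8 FPKM in JHH-7.

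Of the 10 genes, 7 passed the filter for testing in HuH-7 (1 FPKM or more in at least 3 of the line's libraries) and 8 in JHH-7. AXL passed in neither line, EPHB2 and ROR1 passed only in JHH-7, and MST1R only in HuH-7. In these comparisons a gene was called at a Benjamini-Hochberg adjusted p under 0.05 over all genes tested, from limma on log2(FPKM + 1). In HuH-7, 1 of 7 genes was called with sgKLB, where 17.6% of all genes were called. With sgFGFR4 in HuH-7, 0 of 7 were called against 3.71% of all genes. There 3 of 7 had an unadjusted p under 0.05 in limma, as did 3976 of the 14716 genes tested. With sgFGFR3/4 in HuH-7, 1 of 7 was called against 16.1%; without sgFGFR3/4 replicate 2 the count was 3, with MET (0.31, adjusted p = 0.0455) and DDR1 (-0.47, adjusted p = 0.0228) joining EPHA2. In JHH-7, 4 of 8 were called with sgKLB against 31.9% of all genes. The sgFGFR4 comparison in JHH-7 called 1 of 8 against 4.25%, and without sgFGFR4 replicate 3 it also called EPHB4 (-0.35, adjusted p = 0.0279). For sgFGFR3/4 in JHH-7 the count was 2 of 8 against 3.53%. For sgFGFR1/3/4 it was 3 of 8 against 39.8%. With sgKLB the median log2 change of the tested receptors was -0.04 in HuH-7, beside 0.02 over all genes, and 0.07 in JHH-7, beside -0.02 over all genes.

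**Figure D2:**
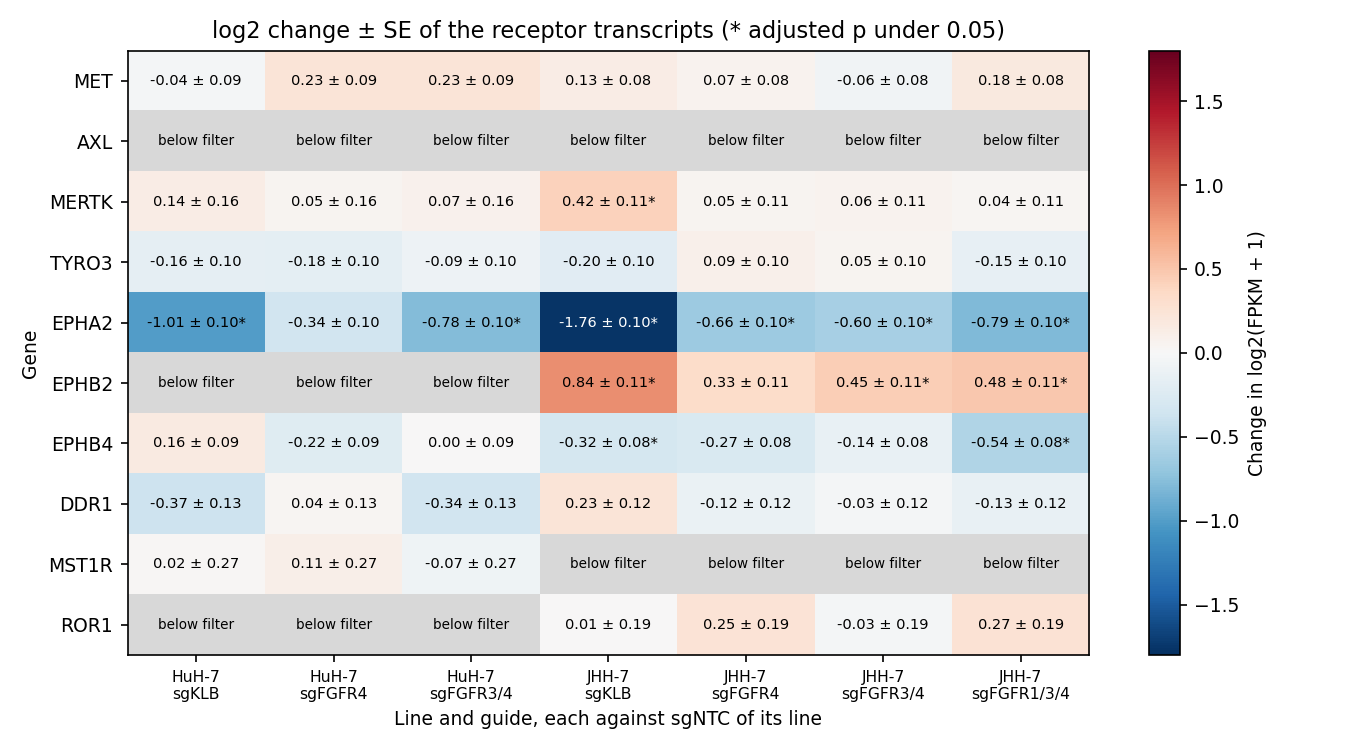
Difference in mean log2(FPKM + 1) between each knockout group and sgNTC of its line, with its standard error, for the 10 receptor genes; grey cells failed the filter on low values and an asterisk marks an adjusted p under 0.05. EPHA2 is lower in all 7 comparisons and called in 6, while MET and TYRO3 carry no asterisk.

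EPHA2, the ephrin-A receptor with the highest control level of the 10, was lower than in sgNTC with every guide in both lines. In HuH-7 the 3 control libraries had 78.4, 84.5 and 88.9 FPKM, and the sgKLB libraries 47.8, 35.9 and 40.4 FPKM. The sgFGFR4 libraries had 71.1, 60.0 and 67.0 FPKM, and the sgFGFR3/4 libraries 46.7, 50.0 and 48.8 FPKM. No knockout library overlapped the control libraries, and sgKLB and sgFGFR3/4 overlapped each other. EPHA2 fell with sgKLB in HuH-7 by 1.01 ± 0.099 on the log2(FPKM + 1) scale (SE, limma, adjusted p = 3.89e-05), to 0.493 of the control mean. With sgFGFR3/4 in HuH-7 EPHA2 fell by 0.78 ± 0.099 (adjusted p = 0.000585). The difference of -0.34 ± 0.099 with sgFGFR4 did not pass the threshold (adjusted p = 0.0664). Across HuH-7 genes the sgFGFR4 change had a Spearman correlation of -0.505 with transcript GC content, and that of sgFGFR3/4 one of -0.315. The longest EPHA2 transcript has 60.3% GC. The HuH-7 sgKLB and sgFGFR3/4 calls of EPHA2 held in all 7 other settings (limma, adjusted p up to 0.00473). These settings include removal of a length and GC trend. Since RNA came from whole cultures, a lower level in all cells and a loss from some cells cannot be told apart.

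In JHH-7 the EPHA2 controls had 83.7, 105 and 91.7 FPKM, and the sgKLB libraries had 27.2, 28.6 and 24.5 FPKM. The sgFGFR4 libraries had 54.2, 59.7 and 62.0 FPKM, the sgFGFR3/4 libraries 68.9, 57.5 and 57.7 FPKM, and the sgFGFR1/3/4 libraries 51.9, 53.0 and 55.4 FPKM. All 12 knockout libraries lay below all 3 controls, and the sgKLB libraries lay below all others of the line. EPHA2 fell by 1.76 ± 0.0965 with sgKLB on the log2 scale (adjusted p = 7.48e-09), to 0.287 of the control mean. With sgFGFR4, EPHA2 fell by 0.66 ± 0.0965 (adjusted p = 0.00218). EPHA2 fell by 0.60 with sgFGFR3/4 (adjusted p = 0.00345), and this call was lost when only the 2 groups entered the fit (adjusted p = 0.0582). It fell by 0.79 with sgFGFR1/3/4 (adjusted p = 2.24e-05), and by 0.52 after removal of a length and GC trend. EPHA2 made up 36.6% of the summed FPKM of the 10 genes in JHH-7 controls and 14.3% with sgKLB, where it ranked the fourth, behind MET (44.5 FPKM), EPHB4 (43.2) and TYRO3 (27.7), and overlapped both TYRO3 and DDR1. The corresponding shares in HuH-7 were 38.5% and 23.6%.

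**Figure D3:**
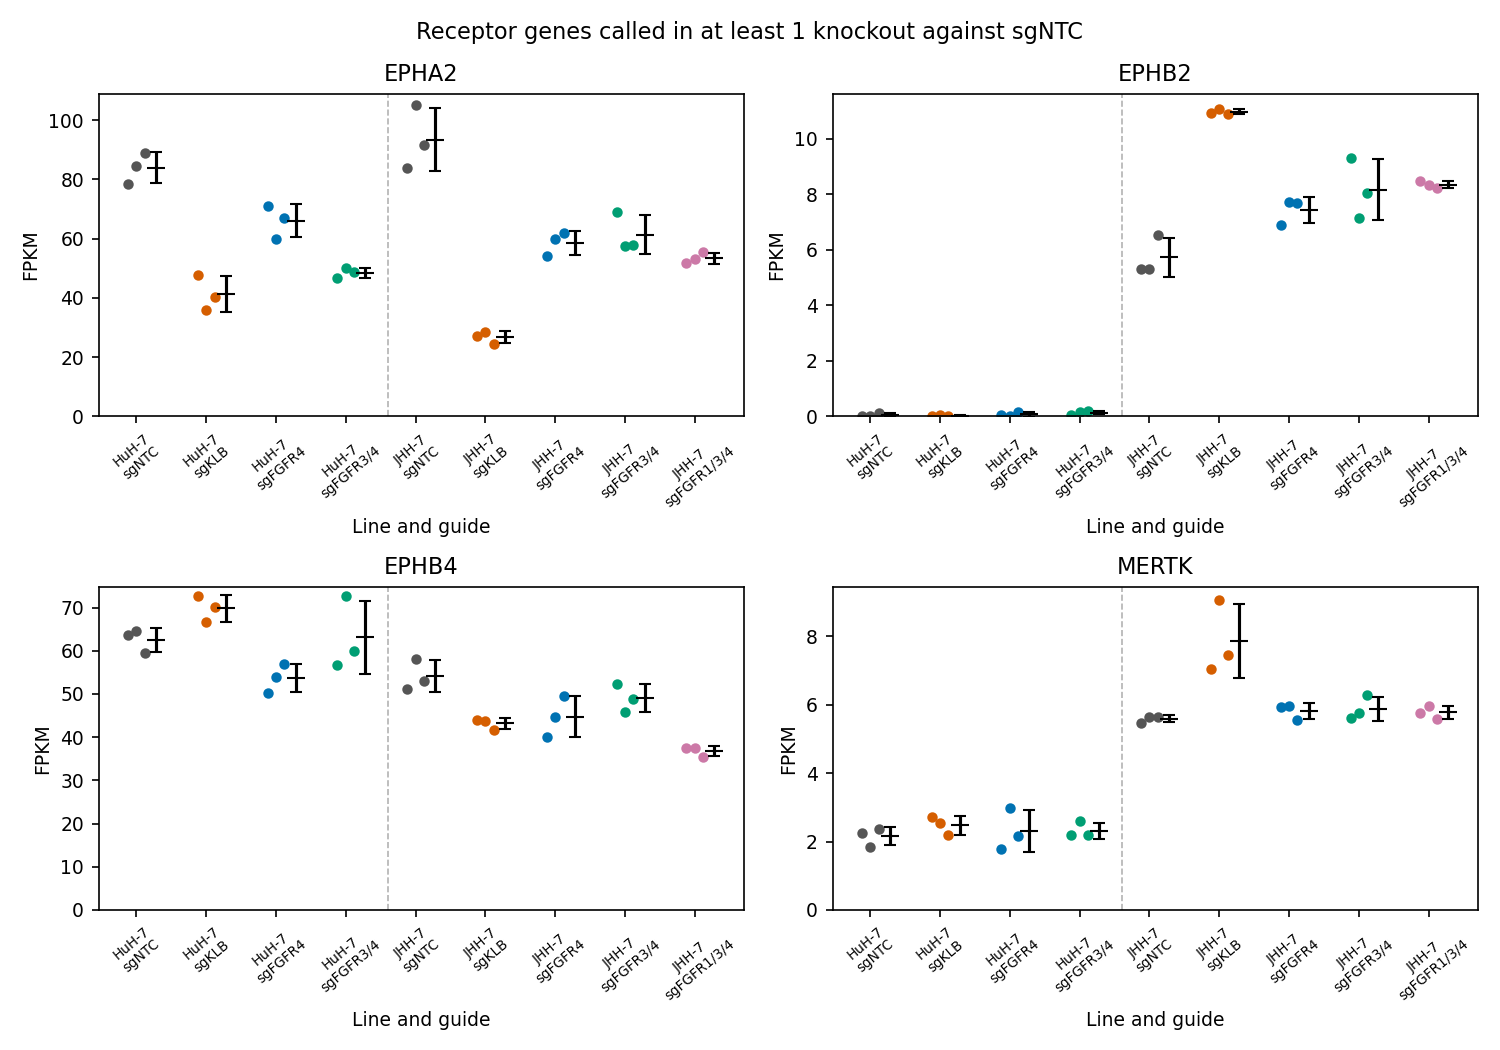
FPKM of EPHA2, EPHB2, EPHB4 and MERTK, the genes called with at least 1 knockout against sgNTC, in each of the 27 libraries; points are libraries, bars are the group mean ± SD (n = 3), and the dashed line parts HuH-7 from JHH-7. In JHH-7 sgKLB, EPHA2 is at 24.5 to 28.6 FPKM against 83.7 to 105 in control, while EPHB2 is at 10.9 to 11.1 FPKM against 5.31 to 6.55.

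EPHB2, a receptor for B-class ephrins, was near 0 in HuH-7, where its 12 libraries ranged from 0 to 0.18 FPKM, and was expressed in JHH-7. The JHH-7 controls had 5.33, 5.31 and 6.55 FPKM and the sgKLB libraries 10.9, 11.1 and 10.9 FPKM. The sgFGFR4 libraries had 6.88, 7.73 and 7.68 FPKM, the sgFGFR3/4 libraries 9.32, 7.15 and 8.05 FPKM, and the sgFGFR1/3/4 libraries 8.50, 8.33 and 8.24 FPKM. All 12 knockout libraries lay above all 3 controls, the reverse of EPHA2. EPHB2 rose with sgKLB by 0.84 ± 0.110 on the log2 scale (adjusted p = 3.95e-05), to 1.92 times the control mean. It rose with sgFGFR1/3/4 by 0.48 (adjusted p = 0.00307), and by 0.82 after removal of the length and GC trend. With sgFGFR3/4 the rise was 0.45 (adjusted p = 0.0401), which was lost when sgNTC replicate 1 or 2 or sgFGFR3/4 replicate 1 or 3 was left out (adjusted p up to 0.129). The EPHB2 call was also lost with no filter (adjusted p = 0.0825), after quantile normalization (adjusted p = 0.0613), with the replicate number as a block (adjusted p = 0.0670) and with only the 2 groups in the fit (adjusted p = 0.260). The difference of 0.33 with sgFGFR4 did not pass the threshold (adjusted p = 0.117).

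EPHB4, the receptor for ephrin-B2, was lower in JHH-7 with sgKLB and sgFGFR1/3/4. The JHH-7 controls had 51.2, 58.2 and 53.0 FPKM, the sgKLB libraries 44.0, 43.9 and 41.7 FPKM and the sgFGFR1/3/4 libraries 37.6, 37.5 and 35.5 FPKM. Neither group overlapped the controls. EPHB4 fell by 0.32 ± 0.0821 with sgKLB (adjusted p = 0.00829) and by 0.54 with sgFGFR1/3/4 (adjusted p = 0.000139). Across the 14977 genes with a value, which are not independent replicates, the sgFGFR1/3/4 change had a Spearman correlation of -0.419 with transcript GC content, and that of sgKLB one of 0.0568. The longest EPHB4 transcript has 60.8% GC, and after removal of a length and GC trend the sgFGFR1/3/4 difference was -0.22 (adjusted p = 0.00983). The sgFGFR4 libraries (40.2, 44.6 and 49.5 FPKM) and the sgFGFR3/4 libraries (52.3, 45.9 and 49.0 FPKM) gave -0.27 (adjusted p = 0.0822) and -0.14 (adjusted p = 0.442). In HuH-7, EPHB4 ranged from 50.3 to 72.7 FPKM over the 12 libraries. Its HuH-7 differences from sgNTC were 0.16 with sgKLB (adjusted p = 0.267), -0.22 with sgFGFR4 (adjusted p = 0.143) and 0.00 with sgFGFR3/4 (adjusted p = 0.977). Across HuH-7 genes the sgFGFR4 change had a Spearman correlation of -0.505 with transcript GC content.

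Among the TAM receptors, MERTK, which serves in the uptake of dying cells, was called in 1 of the 7 comparisons with sgNTC. Its JHH-7 controls had 5.47, 5.65 and 5.64 FPKM and its sgKLB libraries 7.04, 9.07 and 7.46 FPKM, with no overlap. MERTK rose by 0.42 ± 0.106 (adjusted p = 0.00697). The other 9 JHH-7 knockout libraries lay between 5.54 and 6.27 FPKM and the HuH-7 libraries between 1.78 and 2.98 FPKM. The 6 other MERTK differences from sgNTC ranged from 0.04 to 0.14 (adjusted p from 0.618 to 0.870). TYRO3 ranged from 18.0 to 26.0 FPKM in HuH-7 and from 25.8 to 36.7 in JHH-7, and its differences from sgNTC, between -0.20 and 0.09, had adjusted p from 0.154 to 0.876. AXL was at most 0.24 FPKM in HuH-7 and 0.60 in JHH-7. The AXL libraries of JHH-7 had 0.24 to 0.27 FPKM in control, 0.19 to 0.27 with sgKLB, 0.25 to 0.51 with sgFGFR4, 0.42 to 0.60 with sgFGFR3/4 and 0.38 to 0.44 with sgFGFR1/3/4. AXL was below the filter in every library, so it was tested only in the setting with no filter, and those values are not given here.

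MET, the receptor of hepatocyte growth factor, was not called in any comparison with sgNTC in the fit of all groups of a line. Its HuH-7 libraries had 23.9, 22.2 and 19.8 FPKM in control, and the group means were 21.3 ± 1.02 with sgKLB, 25.9 ± 1.42 with sgFGFR4 and 25.9 ± 2.43 with sgFGFR3/4. The sgFGFR4 libraries of HuH-7 (24.5 to 27.3 FPKM) lay above all 3 controls, with a difference of 0.23 ± 0.0934 (adjusted p = 0.141). The difference with sgFGFR3/4 was also 0.23 (adjusted p = 0.113), and with sgKLB -0.04 (adjusted p = 0.820). On values rescaled to TPM the sgFGFR3/4 difference was called (0.34, adjusted p = 0.0498). The longest MET transcript has 42.4% GC. Across HuH-7 genes, which are not independent replicates, the sgFGFR4 change had a Spearman correlation of -0.505 with transcript GC content. That of sgFGFR3/4 was -0.315. In JHH-7 the controls had 37.3 to 44.2 FPKM, and the knockout libraries 35.7 to 47.8 FPKM. The JHH-7 differences of MET were 0.13 with sgKLB (adjusted p = 0.252), 0.07 with sgFGFR4 (adjusted p = 0.731), -0.06 with sgFGFR3/4 (adjusted p = 0.784) and 0.18 with sgFGFR1/3/4 (adjusted p = 0.0892). The sgKLB difference passed after removal of the length and GC trend (0.16, adjusted p = 0.0345) and the sgFGFR1/3/4 difference without sgNTC replicate 3 (0.24, adjusted p = 0.0420). MST1R, the nearest relative of MET, ranged from 0.94 to 2.81 FPKM in HuH-7, and its differences from sgNTC there, between -0.07 and 0.11, had adjusted p from 0.830 to 0.978. The 12 JHH-7 knockout libraries listed MST1R at 0 to 0.31 FPKM.

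DDR1, the collagen receptor, was not called against sgNTC either. Its HuH-7 controls had 20.6, 20.9 and 23.2 FPKM, and its sgKLB libraries 14.9, 16.7 and 17.8 FPKM, all below the controls. That difference of -0.37 ± 0.126 missed the threshold over all genes (adjusted p = 0.0638); it passed after removal of the length and GC trend (adjusted p = 0.0271). The HuH-7 sgFGFR3/4 difference of DDR1 was -0.34 (adjusted p = 0.0877). In JHH-7 the DDR1 differences lay between -0.13 and 0.23 (adjusted p from 0.167 to 0.941). ROR1 ranged from 0.02 to 0.32 FPKM in HuH-7 and from 0.89 to 2.20 in JHH-7, and its JHH-7 differences, between -0.03 and 0.27, had adjusted p from 0.291 to 0.972.

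The knockout groups were also compared with each other. Adding FGFR3 loss to FGFR4 loss gave no called receptor in HuH-7 (0 of 7, against 1.62% of all genes). Over all genes, 1987 of 14716 had an unadjusted p under 0.05 in limma, and so did 3 of the 7 receptors. The largest of these differences was that of EPHA2, at -0.43 ± 0.099 (adjusted p = 0.0540), which passed on TPM values (adjusted p = 0.0404), after quantile normalization (adjusted p = 0.0413) and after removal of the length and GC trend (adjusted p = 0.00282). In JHH-7 the same comparison called 0 of 8 receptors, against 0.0133% of all genes. No receptor had an unadjusted p under 0.05 in limma there, beside 766 of 14987 genes. EPHA2 differed there by 0.06 ± 0.0965 (adjusted p = 0.987). KLB loss against FGFR3/4 loss in HuH-7 called 0 of 7 receptors, against 0.550% of all genes. There 2 of 7 had an unadjusted p under 0.05 in limma, beside 2564 of 14716 genes. These were MET (-0.27, limma, adjusted p = 0.177) and EPHA2 (-0.23, adjusted p = 0.252). EPHA2 differed by -0.34 (adjusted p = 0.0372) after removal of the length and GC trend.

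Adding FGFR1 loss to FGFR3/4 loss in JHH-7 called 2 of 8 receptors, against 32.2% of all genes. FGFR1 was not the only target that differed between these groups. FGFR3 was at 34.65 FPKM in sgFGFR1/3/4 and 43.9 in sgFGFR3/4 (limma, adjusted p = 0.00177). FGFR4 was at 66.9 FPKM in sgFGFR1/3/4 and 84.2 in sgFGFR3/4 (limma, adjusted p = 0.00945). The receptor differences therefore cannot be assigned to FGFR1 alone. EPHB4 was lower by that comparison (-0.40, adjusted p = 0.00216), but the difference was -0.13 (adjusted p = 0.117) after removal of the length and GC trend. MET was higher (0.24, adjusted p = 0.0325), a call that was lost without sgFGFR3/4 replicate 1 or 3 or sgFGFR1/3/4 replicate 1 or 3 (adjusted p up to 0.126). After removal of the length and GC trend the MET difference was 0.08 (adjusted p = 0.295), and its call was also lost with no filter, after quantile normalization, with the replicate block and with only the 2 groups in the fit (adjusted p from 0.0515 to 0.0671). The receptor called after removal of the trend was EPHB2 (0.31, adjusted p = 0.0328) alone. EPHA2 differed by -0.19 (adjusted p = 0.147). The change over all genes in this comparison had a Spearman correlation of -0.473 with GC content across genes.

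KLB loss against FGFR1/3/4 loss in JHH-7 called 5 of 8 receptors, against 35.7% of all genes, and gave a Spearman correlation of 0.513 with GC content across genes. EPHA2 was lower in sgKLB (-0.97 ± 0.0965 in log2 units, adjusted p = 8.06e-06), with sgKLB libraries at 24.5 to 28.6 FPKM and sgFGFR1/3/4 libraries at 51.9 to 55.4. Without sgKLB replicate 2, EPHA2 was the only 1 of the 5 calls that held. After removal of the length and GC trend EPHA2 and MERTK held, and a receptor not among the 5 was called. MERTK was higher in sgKLB (0.38, adjusted p = 0.0124; 0.0656 without sgKLB replicate 2). EPHB2 was higher by 0.36 (adjusted p = 0.0209), which became 0.04 (adjusted p = 0.806) after removal of the length and GC trend and was also lost without sgKLB replicate 2 or sgFGFR1/3/4 replicate 2 or 3. DDR1 was higher by 0.36 (adjusted p = 0.0323), became 0.06 (adjusted p = 0.743) after that removal, and was lost in 5 of the 6 fits without 1 library (kept without sgFGFR1/3/4 replicate 1). EPHB4 was higher by 0.22 (adjusted p = 0.0468), a call lost in all 6 fits without 1 library, with no filter, on TPM values and with the replicate block (adjusted p = 0.0710), and of opposite sign, at -0.09 (adjusted p = 0.290), after removal of the trend.

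The lines were compared in a fit of all 27 libraries, in which 9 of the 10 genes passed the filter; the 2 tables were joined because FPKM is scaled within each library. In control cells 7 of 9 receptors differed between JHH-7 and HuH-7, against 64.0% of all genes. MET was 0.86 ± 0.0824 higher in JHH-7 (adjusted p = 4.23e-09), MERTK 1.06 higher (adjusted p = 5.08e-08) and TYRO3 0.40 higher (adjusted p = 0.00144). EPHB2 and ROR1 were also higher in JHH-7 (adjusted p = 6.67e-16 and 5.83e-06), from levels near 0 in HuH-7, and MST1R was lower (adjusted p = 1.11e-05). EPHB2 and ROR1 passed the filter through JHH-7 alone and MST1R through HuH-7 alone, so their calls follow largely from the filter. EPHB4 was lower in JHH-7 (-0.21, adjusted p = 0.0363), a call lost without replicate 1 or 2 of HuH-7 sgNTC or replicate 1 or 3 of JHH-7 sgNTC (adjusted p up to 0.132). This EPHB4 call was lost in 5 of the 6 other settings tried, all but the pseudocount of 0.1: no filter, TPM values (adjusted p = 0.149), quantile normalization, the replicate block (adjusted p = 0.0541) and only the 2 groups in the fit. EPHA2 differed by 0.15 (adjusted p = 0.196), and passed on TPM values (adjusted p = 0.0414) and after quantile normalization (adjusted p = 0.0163). DDR1 differed by -0.03 (adjusted p = 0.864).

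The effect of sgKLB differed between the lines for 4 of 9 receptors, against 19.7% of all genes. EPHA2 fell further in JHH-7, with a difference of effects of -0.75 ± 0.140 (adjusted p = 0.000411). For EPHB4 the difference of effects was -0.47 ± 0.119 (adjusted p = 0.00601), from 0.16 in HuH-7 and -0.32 in JHH-7. The difference for DDR1 was 0.60 ± 0.177 (adjusted p = 0.0180), from -0.37 in HuH-7 and 0.23 in JHH-7, and it was lost without HuH-7 sgKLB replicate 2 or JHH-7 sgNTC replicate 1 (adjusted p up to 0.0530). For EPHB2 it was 0.87 ± 0.149 (adjusted p = 0.000157), with HuH-7 near 0 in all libraries, and it was lost with a pseudocount of 0.1 (adjusted p = 0.0712). EPHB2 passed the filter through JHH-7 alone, so no HuH-7 effect could be measured. Its call among the 4 mainly repeats the JHH-7 change of 0.84. The sgFGFR4 effect differed for 0 of 9 receptors, against 4.12% of all genes. An unadjusted p under 0.05 in limma was found for 1 receptor and for 3336 of 16731 genes. That receptor was EPHA2 (-0.32, adjusted p = 0.207), called after removal of the length and GC trend (adjusted p = 0.0181). The sgFGFR3/4 effect differed for 0 of 9, against 7.21%. In limma 3837 of 16731 genes had an unadjusted p under 0.05 for this effect, and so did 2 receptors. These were MET (-0.29, adjusted p = 0.137) and EPHB2 (0.33, adjusted p = 0.187). Without HuH-7 sgFGFR3/4 replicate 2, MET was called there (-0.37, adjusted p = 0.0496).

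Of 23 listed ligands, activators and inhibitors of these receptors, 14 were tested in each line. With sgKLB in HuH-7, 4 rose and 0 fell, where 8.98% of all genes rose and 8.62% fell, with a list median log2 change of 0.19 beside 0.02 over all genes. The 4 were SPINT1 (0.50, adjusted p = 0.00179), an inhibitor of the proteases that activate hepatocyte growth factor, WNT5B (1.35, adjusted p = 0.00185), HPN (0.44, adjusted p = 0.00231), which encodes the protease hepsin, and EFNA1 (0.28, adjusted p = 0.00982), a ligand of EPHA2. WNT5B was at 0.28 to 0.48 FPKM in the HuH-7 controls and at 2.24 to 2.85 with sgKLB. It passed the filter only through sgKLB and sgFGFR3/4 libraries, so its call follows in part from the filter. With sgFGFR4 and sgFGFR3/4 in HuH-7, 0 of 14 were called, against 3.71% and 16.1% of all genes. On TPM values and after removal of the length and GC trend, 4 rose with sgFGFR3/4. The shares of all genes in those settings are not given here. With sgKLB in JHH-7, 4 rose and 0 fell, against 15.5% and 16.4% of all genes; 3 of the 4 were collagens, the ligand class of DDR1, and 2 of the list rose without sgNTC replicate 1. COL4A1 went from 1.18 to 4.61 FPKM (1.39, adjusted p = 2.20e-05) and COL4A2 from 0.830 to 3.36 FPKM (1.27, adjusted p = 0.00248). COL1A1, also on the stromal marker list, went from 2.44 to 6.31 FPKM (1.13, adjusted p = 0.0111; 0.0548 without sgNTC replicate 1). The fourth, EFNA5 (1.00, adjusted p = 0.0271), held only without sgKLB replicate 3 among the 6 fits without 1 library. With sgFGFR1/3/4, 2 rose, COL4A1 (1.88) and COL4A2 (1.38), and 4 fell, against 20.8% and 19.0% of all genes, with a list median of -0.11 beside 0.03 over all genes. HPN fell by 1.22 (adjusted p = 0.000536) and EFNA1 by 0.57 (adjusted p = 0.000857), while MST1 (-0.87) and EFNB1 (-0.43) lost their calls after removal of the length and GC trend (adjusted p = 0.0575 and 0.146). With sgFGFR4 in JHH-7, 1 of 14 was called, against 4.25% of all genes. This was COL4A1 (0.67, adjusted p = 0.0390), a call that held only without sgNTC replicate 3 among the 6 fits without 1 library. With sgFGFR3/4 in JHH-7, 0 of 14 were called, against 3.53% of all genes.

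Among 48 other receptor tyrosine kinases, 22 were tested in HuH-7 and 23 in JHH-7; the list holds the FGFR genes that the guides target. With sgKLB in HuH-7, 7 rose and 3 fell, against 8.98% and 8.62% of all genes, with a list median of 0.31 beside 0.02. These counts moved with single libraries: 3 rose without sgNTC replicate 2 or 3 or sgKLB replicate 1 or 2, and 0 fell without sgNTC replicate 3 or sgKLB replicate 3. The 3 called as lower were PDGFRA (adjusted p = 0.0203), FGFR3 (adjusted p = 0.0429) and ERBB4 (adjusted p = 0.0488). EGFR rose by 0.44 (adjusted p = 0.000328), ERBB2 by 0.61 (adjusted p = 0.000728) and ERBB3 by 0.52 (adjusted p = 0.00206), all members of the epidermal growth factor receptor family. The same 3 genes rose in HuH-7 sgFGFR3/4 (0.33, 0.41 and 0.48), where 4 rose and 2 fell, against 8.90% and 7.22% of all genes; both that fell, FGFR3 and FGFR4, were the targets. With sgKLB in JHH-7, 6 rose and 4 fell, against 15.5% and 16.4% of all genes, with a list median of 0.13 beside -0.02; 2 fell without sgNTC replicate 1. EPHA1, another ephrin-A receptor, went from 0.610 to 6.32 FPKM (2.20, adjusted p = 5.67e-06), in the opposite direction to EPHA2. EGFR rose by 0.95 (adjusted p = 1.35e-05), FGFR3 by 0.38 (adjusted p = 0.000435) and FGFR2 by 0.67 (adjusted p = 0.000705), while RYK fell by 0.45 (adjusted p = 0.00365). With sgFGFR1/3/4, 4 rose and 9 fell, against 20.8% and 19.0% of all genes, 3 of the latter being the targets; EPHA1 (1.19), FGFR2 (0.80) and EGFR (0.57) were among those that rose, and ERBB3 fell by 0.60 (adjusted p = 0.000485). With sgFGFR4, 0 rose and 1 fell in HuH-7, against 2.07% and 1.64% of all genes. In JHH-7 with sgFGFR4, 1 rose and 1 fell, against 2.42% and 1.83%. The gene that fell was the target FGFR4 in both lines. The JHH-7 gene that rose, EPHA1, was not called without sgNTC replicate 2 or sgFGFR4 replicate 2, and 2 rose in HuH-7 without sgNTC replicate 1. With sgFGFR3/4 in JHH-7, 0 rose and 2 fell, against 2.24% and 1.29% of all genes, and both that fell were targets.

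Of 22 adaptors, co-receptors and negative regulators, 21 were tested in each line. In JHH-7, 1 rose and 7 fell with sgKLB, against 15.5% and 16.4% of all genes, with a list median of -0.10 beside -0.02; 4 fell without sgKLB replicate 3. ERRFI1, a feedback inhibitor of the EGF receptor, went from 118 to 34.9 FPKM (-1.73, adjusted p = 6.84e-10). SRC, a kinase bound by many of these receptors, went from 119 to 39.2 FPKM (-1.58, adjusted p = 2.48e-07). YES1 fell by 0.84 (adjusted p = 9.76e-05) and the ubiquitin ligase gene CBLB by 0.67 (adjusted p = 0.00793). With sgFGFR1/3/4, 3 rose and 9 fell, against 20.8% and 19.0% of all genes, with SRC at 23.8 FPKM (-2.29) and SHC1 at 53.7 against 99.1 FPKM (-0.88, adjusted p = 2.31e-05). With sgFGFR4 in JHH-7, 0 rose and 2 fell, against 2.42% and 1.83% of all genes. With sgFGFR3/4 there, 0 rose and 1 fell, against 2.24% and 1.29%. ERRFI1 fell in both (-0.56 and -0.65). The second gene that fell with sgFGFR4, SRC, was not called in 5 of the 6 fits without 1 library (all but that without sgFGFR4 replicate 3). In HuH-7, 4 rose and 1 fell with sgKLB, against 8.98% and 8.62% of all genes, and 2 rose without sgNTC replicate 3 or any 1 of the 3 sgKLB libraries. With sgFGFR4 in HuH-7, 1 rose and 0 fell, against 2.07% and 1.64% of all genes; that gene, PIK3R1 (adjusted p = 0.0495), was called in 1 of the 6 fits without 1 library, the fit without sgNTC replicate 1, where 4 rose. With sgFGFR3/4 in HuH-7, 2 rose and 1 fell, against 8.90% and 7.22%; YES1 (adjusted p = 0.0486) was lost, leaving 1, when replicate 2 or 3 of the controls or replicate 1 or 3 of sgFGFR3/4 was left out, and 4 rose without sgFGFR3/4 replicate 2. SHC1, an adaptor that links receptors to RAS, was the HuH-7 gene that fell in both sgKLB (-0.56, adjusted p = 0.000195) and sgFGFR3/4 (-0.35, adjusted p = 0.00677).

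Of 13 proteases and inhibitors of receptor shedding, 13 were tested in HuH-7 and 12 in JHH-7. TIMP2, an inhibitor of matrix metalloproteinases, rose with sgKLB in JHH-7 from 11.8 to 25.8 FPKM (1.07, adjusted p = 1.25e-06), where 2 of the list rose and 3 fell, against 15.5% and 16.4% of all genes. The other that rose, TIMP3, and the third that fell, ADAM9, were lost in 4 and 5 of the 6 fits without 1 library, and 1 rose and 2 fell without sgNTC replicate 1 or 3 or sgKLB replicate 1. TIMP1 (-0.92, adjusted p = 0.00177) and ADAM17 (-0.49, adjusted p = 0.00246), the main shedding protease of many receptors, fell there. With sgFGFR1/3/4, 3 rose and 3 fell, where 20.8% and 19.0% of all genes did, with ADAM10 at 121 against 69.1 FPKM (0.82, adjusted p = 0.000479) and NCSTN, a subunit of gamma-secretase, falling by 0.53 (adjusted p = 0.000161). With sgFGFR4 and sgFGFR3/4 in JHH-7, 1 rose and 0 fell in each, where 2.42% and 2.24% of all genes rose; the gene was TIMP2 in both, and its call was lost in both without sgNTC replicate 1 or 3 and in 4 of the 6 fits without 1 library. In HuH-7, 2 rose and 0 fell with sgKLB, against 8.98% and 8.62% of all genes: TIMP3 (0.36, adjusted p = 0.00998) and TIMP2 (adjusted p = 0.0281), which was lost without sgNTC replicate 1 or 2 or sgKLB replicate 1 or 3. Without sgNTC replicate 3, 2 of the list also fell. With sgFGFR4 in HuH-7, 1 rose and 0 fell, against 2.07% and 1.64%; that gene, ADAM10 (adjusted p = 0.0491), was called in 1 of the 6 fits without 1 library, the fit without sgNTC replicate 1, where 2 rose. With sgFGFR3/4 in HuH-7, 0 of 13 were called, against 16.1% of all genes, and 1 rose without sgNTC replicate 1.

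The genes whose libraries followed EPHA2 most closely were IER3, RUVBL1 and SPRY4, by Pearson correlation of log2(FPKM + 1) over the 27 libraries after centring on the mean of each line, among 7875 genes. These libraries share their guide groups, so the values are a description. IER3 had r = 0.980, with 0.969 within HuH-7 and 0.987 within JHH-7. IER3 is an immediate early response gene, and its means were 78.8 ± 3.19 FPKM in HuH-7 control, 38.5 ± 0.907 with sgKLB, 58.7 ± 4.14 in JHH-7 control and 13.3 ± 0.949 with sgKLB. SPRY4, a feedback inhibitor of receptor tyrosine kinase signalling, had r = 0.962, and its means were 21.4 ± 1.00 FPKM in HuH-7 control, 8.37 ± 0.764 with sgKLB, 18.6 ± 1.33 in JHH-7 control and 4.05 ± 0.686 with sgKLB. RUVBL1, which encodes an ATPase of chromatin remodelling complexes, also had r = 0.962, over a narrower range (75.4 ± 2.35 to 40.9 ± 1.34 FPKM from JHH-7 control to sgKLB). In all 3 genes, as in EPHA2, the controls were the highest group mean and sgKLB the lowest in both lines. For MET the nearest genes were IQGAP2 (r = 0.914), TBC1D8B (r = 0.913) and MAP3K7 (r = 0.909). AXL was below the filter, so no similar genes were sought.

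**Figure D4:**
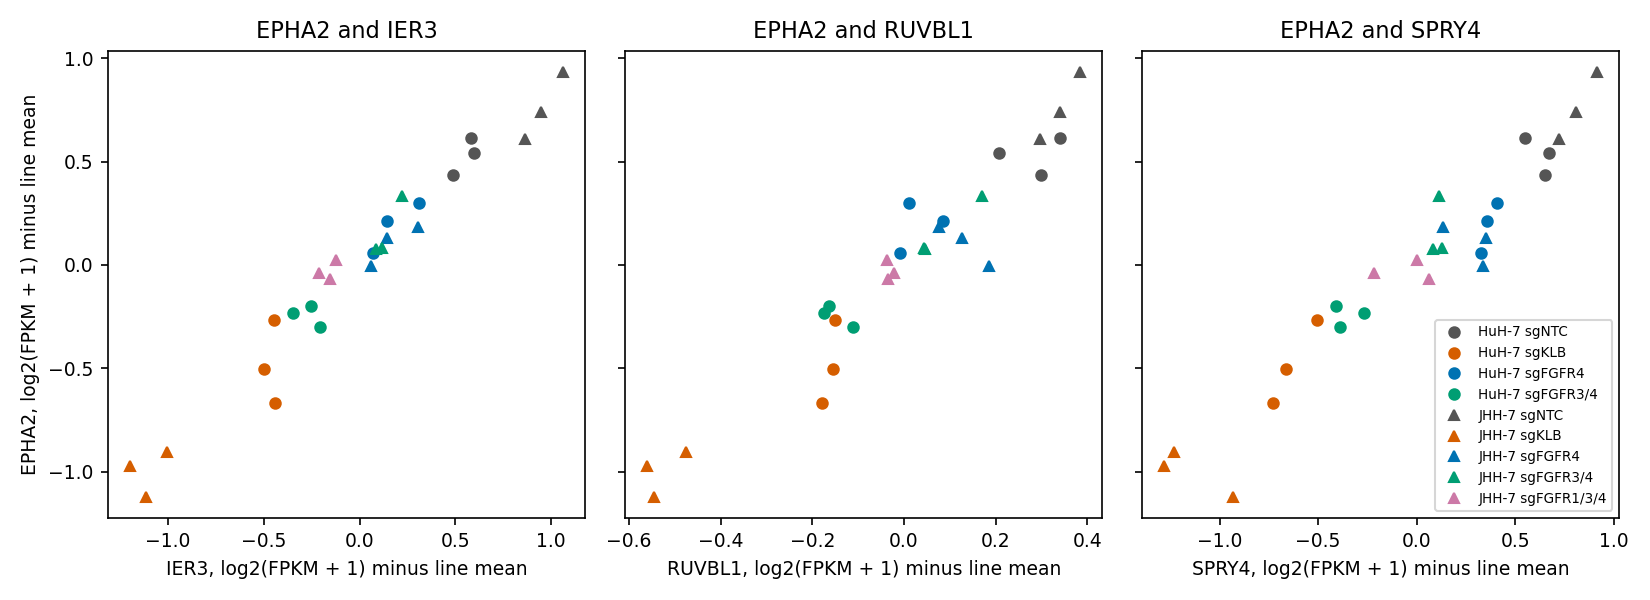
EPHA2 against IER3, RUVBL1 and SPRY4 in the 27 libraries, each as log2(FPKM + 1) minus the mean of its line; circles are HuH-7, triangles JHH-7, and colours are guide groups. In each panel the sgNTC libraries lie at the top right and the JHH-7 sgKLB libraries at the bottom left, with r = 0.980 for IER3 and 0.962 for both RUVBL1 and SPRY4.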

How the data were processed

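RNA was measured in 27 libraries. The authors deposited 1 table of FPKM values per line; per the submitters' processing notes RSEM and GRCh38 (hg38) were used, with no version; sources used here do not give the aligner, annotation or strand setting. The FPKM unit was taken from the values, whose sums differ between libraries and are not those of TPM, so a count test was not used. The 58735 gene IDs matched GENCODE 29, the source of positions.

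Values were analysed as log2(FPKM + 1), so fold changes of low genes are understated. limma 3.58.1 (R 4.3.3, statmod 1.5.0; trend and robust settings) was fitted to all groups of a line, or to all 27 libraries for line differences, over genes at 1 FPKM or more in at least 3 libraries (14716 genes in HuH-7, 14987 in JHH-7, 16731 in both). Tests were two-sided, with Benjamini-Hochberg adjustment over all genes and a threshold of 0.05; the procedure was tested on simulated data. Named were the 10 receptors in every group, up to 4 list genes per direction and comparison by smallest p, the guide targets, and the 3 genes most similar to MET and EPHA2. Receptors and lists were chosen with earlier results of these data known. Alternatives were a pseudocount of 0.1, no filter, TPM, quantile normalization, only the groups compared, a replicate block, leaving out each library and, chosen after seeing the data, removal of a trend on transcript length and GC content. Depth was estimated from the steps of low values, 87.0 to 92.9% of which were whole multiples within 0.1. Figures were drawn with matplotlib 3.10.9 in Python 3.11.15.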

Additional observations from a re-analysis of the deposited data

Results flagged for a closer look

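The effect of sgKLB differed between the lines for 4 receptors by the interaction term of the fit over all 27 libraries (limma, adjusted over all genes). The JHH-7 effect minus the HuH-7 effect was -0.75 for EPHA2 (adjusted p = 0.000411), which was lower in all 3 sgKLB libraries of both lines. It was 0.87 for EPHB2 (adjusted p = 0.000157), a gene at 0 to 0.18 FPKM in every HuH-7 library. EPHB2 passed the filter through JHH-7 alone, so its value mainly repeats the JHH-7 change. The EPHB2 call was lost with a pseudocount of 0.1 (limma, adjusted p = 0.0712). The difference of effects was -0.47 for EPHB4 (adjusted p = 0.00601). All 3 HuH-7 sgKLB libraries were above the HuH-7 controls for EPHB4, and all 3 JHH-7 sgKLB libraries below the JHH-7 controls. The difference was 0.60 for DDR1 (adjusted p = 0.0180), where all 3 HuH-7 sgKLB libraries were below their controls. Groups of 3 libraries were not tested for outlying samples.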

How the results depend on the processing

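The count of called receptors moved by more than 1.5 times in these settings. In HuH-7 it was 2 for sgKLB against sgNTC with the length and GC correction and with only the groups compared, 2 for sgFGFR3/4 against sgNTC on TPM values, 1 for sgFGFR3/4 against sgFGFR4 on TPM values, after quantile normalization and with the length and GC correction, and 1 for sgKLB against sgFGFR3/4 after that correction. In JHH-7 the correction gave 2 for sgFGFR4 against sgNTC, 1 for sgFGFR1/3/4 against sgFGFR3/4 (EPHB2, not called before, with both earlier calls lost) and 3 for sgKLB against sgFGFR1/3/4. The counts of 2 and 3 each include a receptor not called before, which is not named here. For JHH-7 sgFGFR3/4 against sgNTC the count was 1 with no filter, after quantile normalization and with the replicate block, and 0 with only the groups compared. For sgFGFR1/3/4 against sgFGFR3/4 it was 1 in those 4 settings, and for sgKLB against sgFGFR1/3/4 it was 3 with no filter and on TPM values. The sgFGFR4 effect differed between lines for 1 receptor after the length and GC correction. The cause of these shifts was not tested, and the shares of all genes called in these settings are not given here. The counts therefore cannot be read as shifts particular to the receptors. In sgKLB against sgFGFR1/3/4, EPHB4 reversed to -0.091 after the correction. In the control cells of the 2 lines the count of 7 became 6 with no filter, with the replicate block and with only the groups compared, and stayed at 7 on TPM values and after quantile normalization, where EPHA2 was called and EPHB4 was not.

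Leaving out each library in turn gave 1 to 1 (HuH-7 sgKLB), 0 to 0 (sgFGFR4), 1 to 3 (sgFGFR3/4), 4 to 4 (JHH-7 sgKLB), 1 to 2 (sgFGFR4), 1 to 2 (sgFGFR3/4) and 3 to 4 (sgFGFR1/3/4) called receptors against sgNTC. Between knockouts it gave 1 to 2 for sgFGFR1/3/4 against sgFGFR3/4, 1 to 4 for sgKLB against sgFGFR1/3/4 and 0 to 0 for the other 3. Between lines it gave 3 to 4 (sgKLB), 0 to 0 (sgFGFR4), 0 to 1 (sgFGFR3/4) and 6 to 7 (sgNTC). The shares of all genes called in these fits are not given here either.

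Same-numbered libraries did not deviate together in any comparison (correlations of -0.206 to 0.084), so the numbers were not taken as pairs; with the replicate block EPHB4 was lost in sgKLB against sgFGFR1/3/4 (4 called, not 5) and in the control cells (6, not 7), EPHB2 in JHH-7 sgFGFR3/4 against sgNTC and MET in sgFGFR1/3/4 against sgFGFR3/4, and no other receptor count changed. Over all named genes, 2635 values kept their direction and side of the threshold, 104 were uncalled in both fits with opposite sign, 226 lost and 20 gained a call, and 1 reversed. On TPM values the median change of all genes moved by over 0.1 in 1 comparison, the line difference of sgFGFR3/4, from -0.07 to -0.17. AXL, and MST1R in JHH-7, lay near the lower limit of detection.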
